A study of Mus musculus with 21 samples.

Results

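Untreated B16-F10 cells were profiled on 8 of the 21 arrays of a mouse melanoma hypoxia study, and these 8 controls are described here. They were chosen by their titles, which give culture at 21% oxygen, and not by any measured value. B16-F10 is a pigmented, metastatic melanoma line of C57BL/6J origin supplied by ATCC, grown in RPMI medium with fetal bovine serum. The controls came as 4 pairs of arrays. The unnumbered pair carries no experiment number and goes with 3 arrays from 24 h at 1% oxygen in a sealed Billups-Rothenberg chamber, an assignment that rests only on the missing number. The pairs of experiments 1 and 2 each accompany 3 arrays from 24 h at 1% oxygen in an incubator. The pair of experiment 3 accompanies 2 arrays after 100 µM and 2 after 200 µM cobalt chloride (CoCl2), a hypoxia mimic, for 24 h. The culture time of the controls is not given in the sources used here. Each pair is called a biological replica pair, without word on whether the cultures were grown separately, so p-values measure the spread between arrays only. Each pair is also its set, so cell passage, culture, RNA handling and array processing cannot be told apart.

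Melanocytes and pigmented melanoma cells make melanin in melanosomes, where tyrosinase (Tyr) and its relatives Tyrp1 and Dct act on a scaffold of Pmel fibrils under the control of the transcription factors Mitf and Sox10. Untreated cultures serve as the zero point of every treatment comparison, so genes that are high, that are near background or that shift between control pairs set what such comparisons can show. Immediate early genes such as Fos and Egr1, which serum and handling induce within minutes, and redox or nutrient sensors such as Txnip are known to follow the state of a culture at harvest.

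The experiment 3 controls stood apart in several measures of RNA and labelling quality, whose part in the results below was not tested. The 3′ minus 5′ log2 signal of Actb was 1.41 to 1.62 in experiment 3 controls, against 0.22 to 0.50 in the other 6, and that of Gapdh 0.92 to 2.21, against 0.07 to 0.52. Among the added bacterial poly-A RNAs, which the cells do not make, the same difference was 0.68 to 0.73 for Lys in experiment 3 controls, against -0.07 to 0.14, and 0.97 to 1.43 for Trpn, against -0.67 to 0.20. Dap and Phe were likewise higher without overlap, while for Thr the groups overlapped, as they did for the transferrin receptor (1.66 to 1.69 in experiment 3 controls, against 1.56 to 2.60) and for 18S rRNA (2.94 to 2.97, against 2.93 to 3.38). The mean hybridisation spike signal was 8.49 in experiment 3 controls, against 7.27 to 7.81 in the other pairs. Since experiment 3 stood furthest apart, counts of called genes for the other pairs are also given against the 2 remaining hypoxia-set pairs alone. That contrast was added after the data were seen.

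The brightest signals in untreated cells included genes of the translation machinery, most often ribosomal proteins, and some of the melanosome, glycolysis and the tubulins. Values are log2 signals of an Affymetrix MG-U74Av2 array, 1 probe set per gene for 8251 genes, and their order is the order of array signal, since probes differ in brightness. Rpl41, a protein of the large ribosomal subunit, ranked 1 and spanned 12.86 to 13.21 (median 13.13) over the 8 controls. Eef1a1, which delivers tRNA to the ribosome, spanned 12.23 to 12.75 (median 12.54). Pmel, the fibril protein of the melanosome, ranked 3 with 12.26 to 12.63 (median 12.46). Neither Eef1a1 nor Pmel passed the test over the 4 pairs (limma moderated F, adjusted p = 0.28 and 0.2). Dct, a melanin-synthesis enzyme, ranked 20 with 11.61 to 11.94 (median 11.72), and Tyrp1 ranked 38 with 10.84 to 11.42 (median 11.21). Of the 25 brightest genes, 9 were among the 32 measured ribosomal proteins, 2 among 10 pigment genes, 2 among 17 glycolysis genes (Pkm and Ldha) and 1 among 23 translation factors. Tubulins Tuba1c, Tuba1a and Tubb5, the RNA-binding protein Ybx1, the splicing protein Snrpb and the actin-binding Tmsb10 were also among them.

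The bright genes were largely the same in every pair. Ranked by each pair's mean, 17 of the top 25 genes were shared by all 4 pairs and 23 by the unnumbered pair and those of experiments 1 and 2. Of the top 100, 74 and 86 were shared. The experiment 3 pair was lower for several of them. Pkm, the pyruvate kinase of glycolysis, was 11.14 and 11.06 in experiment 3 controls, against 12.12 to 12.39 (median 12.29) in the other 6 controls. The groups did not overlap, and the difference was -1.16 ± 0.11 (SE; limma adjusted p = 2.7e-07), although its other probe set did not pass (adjusted p = 0.53). Ldha, which reduces pyruvate to lactate, was 10.95 and 10.92 in experiment 3 controls, against 11.73 to 11.94 (median 11.84) in the other 6. Gstp1, a glutathione transferase, was lower there, with a log2 difference of -0.94 ± 0.18. Gnas, the G-protein alpha subunit downstream of Mc1r, was higher in experiment 3 controls, at 12.31 and 12.22 against 11.65 to 11.82 (median 11.76), but its 2 other probe sets did not pass and the mean of the 3 was not called. Rps28, of the small ribosomal subunit, read 0.29 by its brightest probe set and -0.96 by another, both past the threshold, so its direction is not settled.

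**Figure D1:**
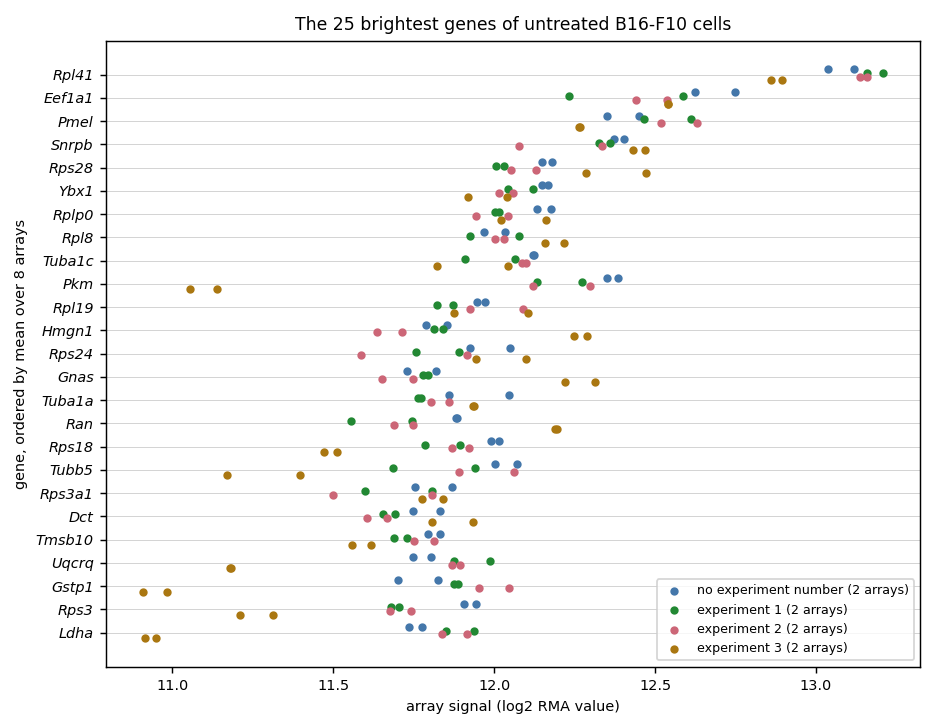
Log2 signal of the 25 brightest genes in untreated B16-F10 cells, with 1 point per control array coloured by pair and genes in order of their mean. Most genes sit within a narrow band, while the experiment 3 arrays lie below the other 6 for Pkm, Gstp1, Ldha and Uqcrq and above them for Gnas, Hmgn1 and Ran.

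Most melanocyte genes were above background in every control. All 10 measured pigment genes and 11 of 13 lineage genes lay more than 1 log2 unit above the background set by yeast probe sets on all 8 arrays, where 79.3% of all genes did. Over a higher ceiling from antisense control probe sets, which 42.1% of all genes passed on all 8 arrays, lay 9 of the 10 and 10 of the 13, and 0 and 2 were under it. Tyr, the enzyme that starts melanin synthesis, spanned 6.94 to 8.04 (median 7.74), with the lowest value on the second experiment 1 array. Sox10, a neural crest transcription factor, spanned 9.08 to 10.01 (median 9.71). Mitf, the master regulator of pigment genes, spanned 5.71 to 6.30 (median 6.07) and was not called over the 4 pairs (adjusted p = 0.16). Ednrb, the endothelin receptor of melanoblasts, was near background on all 8 arrays, spanning 2.15 to 2.64 (median 2.41), and Kit, the receptor for stem cell factor, spanned 3.73 to 4.32 (median 4.02).

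Of the pigment genes, 3 of 10 differed over the 4 pairs, as did 5 of the 13 lineage genes, where 31.5% of all 8251 genes were called (limma moderated F, adjusted p under 0.05). Over the 3 hypoxia-set pairs alone, 1 of 10 and 0 of 13 were called by limma, where 2.42% of all genes were, and 6 of the 13 had an unadjusted p under 0.05. The pigment gene called was Mlph, which links melanosomes to myosin. It was 8.76 and 8.84 in experiment 2 controls and 8.66 and 8.74 in the unnumbered ones, against 8.06 and 7.96 in experiment 1 controls and 8.18 and 7.95 in experiment 3 controls. These formed 2 bands with no overlap (adjusted p over 4 pairs = 1.9e-04, over 3 = 0.0072). Mc1r, the melanocortin receptor that switches on eumelanin synthesis, was highest in the unnumbered pair at 8.71 and 8.69, against 7.82 to 8.54 (median 8.31) in the others, a call lost without either unnumbered array. Sox10 was 9.24 and 9.08 in experiment 3 controls, against 9.63 to 10.01 (median 9.85) in the other 6, and its second probe set was lower there too (-1.13). Tyrp1 could not be placed, since 1 probe set was level or slightly higher in experiment 3 controls (0.29 ± 0.12, not called) and 2 others were lower (-1.03 and -1.15).

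Markers of other lineages were judged by the same ceilings. The deposited table holds no detection calls, so background was set from 4 yeast probe sets (ceiling of 2.66 to 3.04 per array) and, as a higher bound chosen after the data were seen, from 15 antisense control probe sets (5.70 to 6.33). With the yeast ceiling, 374 genes (4.53%) were near background on all 8 controls and 6544 (79.3%) were more than 1 log2 unit above it on all 8. With the antisense ceiling, 3450 (41.8%) were at or under it on all 8 and 3474 (42.1%) over it. By the yeast ceiling, 6 of 6 erythroid markers, 9 of 11 liver, 10 of 14 leukocyte, 9 of 13 fibroblast, 5 of 9 endothelial, 6 of 13 muscle, 4 of 12 epithelial and 3 of 10 neural markers were more than 1 log2 unit above background on all 8 arrays. Near it on all 8 were 2 epithelial, 1 endothelial, 3 neural, 3 muscle, 1 liver and 0 of the other markers. At or under the antisense ceiling lay 10 of 12 epithelial markers, 11 of 14 leukocyte markers, 7 of 9 endothelial, 8 of 10 neural, 8 of 11 liver, 9 of 13 muscle, 9 of 13 fibroblast and 3 of 6 erythroid markers. In a bulk culture, fewer cells of a type and less RNA per cell cannot be told apart.

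A few markers of other lineages were nevertheless clear of both ceilings on all 8 arrays. They were 3 of 13 fibroblast, 2 of 14 leukocyte, 1 of 9 endothelial, 1 of 10 neural and 1 of 13 muscle markers. No epithelial, liver or erythroid marker was. Some of them are given here. Eng, the TGF-beta co-receptor of endothelium, spanned 10.28 to 10.74 (median 10.53), while 7 of the other 8 endothelial markers were under the antisense ceiling. Fbln1, a matrix fibulin, spanned 8.59 to 9.69 (median 9.43), Col1a2, a collagen I chain, 7.65 to 8.51 (median 7.98), and Mag, a myelin glycoprotein, 8.58 to 8.94 (median 8.89). These levels are those of the brightest probe set. The other Col1a2 probe set had pair means of 5.38 to 5.94. For the other Fbln1 probe sets they were 8.24 to 8.66, 5.72 to 7.23 and 5.16 to 5.72. Immune genes were mixed. B2m, the light chain of MHC class I, spanned 8.87 to 9.58 (median 9.08) and H2-K1, a class I heavy chain, 6.82 to 7.38. The other H2-K1 probe sets had pair means of 5.61 to 5.89 and 4.95 to 5.28. Of 26 interferon-induced genes, 20 were under the antisense ceiling and 3 over it (Irf1, Ifitm3 and Ifi27), and of 24 chemokines and cytokines 18 were under it, with Ccl2, Ccl7, Il6, Csf2 and Kitl near the yeast background. Csf1 and Pdgfa, growth factors for macrophages and mesenchyme, were the 2 over it.

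Some genes dim in untreated cells read higher after treatment. By the yeast ceiling a single gene near it in all controls was more than 1 log2 unit above it in a treated group, Lilr4b, a leukocyte immunoglobulin-like receptor, at 4.85 and 5.33 after 200 µM CoCl2, against 1.87 to 2.61 over the 8 controls. Its treated values stayed below the medians of those arrays (5.49 and 5.47). By the antisense ceiling there were 19 in any treated group. Ccng2, an atypical cyclin, and Pkp2, a desmosome protein, qualified in all 5 treated groups, and Lgals3 (galectin-3) and Gbe1 (glycogen branching enzyme) joined them in each of the 3 hypoxia groups. Lgals3 was 7.67 to 8.16 (mean 7.95) after chamber hypoxia, against 3.57 and 3.96 in its own controls. Vegfa, the angiogenic factor, was 8.01 to 8.30 (mean 8.20) after hypoxia in experiment 1, against 5.02 and 5.16. Adm, the vasodilator adrenomedullin, was 6.82 to 7.20 (mean 6.96), against 3.99 and 4.16. With cobalt, the chemokine Ccl5 was 11.51 on both arrays at 200 µM, against 5.12 and 5.16, and the dim controls did not overlap the treated arrays. These genes were picked on both levels, so no test applies.

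Across the pairs, the experiment 3 controls stood apart. Over all genes, arrays of the same pair correlated at 0.994 to 0.998, arrays of different hypoxia-set pairs at 0.989 to 0.995, and arrays of experiment 3 with any other at 0.969 to 0.984. These correlations are across genes, which are not independent replicates. The median gene differed by 0.08 to 0.13 log2 units within a pair. In all, 2600 of 8251 genes (31.5%) differed over the 4 pairs and 381 (4.62%) also spanned at least 1 log2 unit, but only 200 (2.42%) and 24 (0.291%) did so without experiment 3. These counts depended on the arrays fitted, since array weights gave 4236 genes over the 4 pairs and 2287 over 3, and over 3 pairs the fit without the CoCl2 arrays gave 1139 and the 8 controls alone 1068. Between pair means, experiments 1 and 2 were at least 1 log2 unit from the unnumbered pair in 9 and 24 genes, and 12 genes separated them from each other. Experiment 3 was that far from the unnumbered pair in 196 genes, from experiment 1 in 225 and from experiment 2 in 263.

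Set against the mean of the other 3 pairs, experiment 3 controls were higher in 1542 genes (18.7%) and lower in 1063 (12.9%), with 30 and 149 of them by at least 1 log2 unit. Experiment 2 controls were higher in 140 (1.70%) and lower in 210 (2.55%), experiment 1 controls higher in 158 (1.91%) and lower in 309 (3.75%), and unnumbered controls higher in 226 (2.74%) and lower in 100 (1.21%). Against the 2 remaining hypoxia-set pairs alone, 19 genes (0.23%) were higher and 25 (0.303%) lower in experiment 2 controls, 11 (0.133%) and 24 (0.291%) in experiment 1 controls and 248 (3.01%) and 124 (1.5%) in the unnumbered ones. Of those 44, 35 and 372 genes, 40, 31 and 151 were also called in the same direction against all 3 other pairs. With each array centred on its median the split was 105 higher and 378 lower for experiment 1 and 305 and 69 for the unnumbered pair. Both arrays of a pair lay above the other 6 in 20.7% of genes for experiment 3, 6.71% for experiment 2, 8.5% for experiment 1 and 6.7% for the unnumbered pair, and below them in 16.5%, 5.04%, 6.81% and 11.6%, which is the background for the statements on overlap made of single genes. The 4 contrasts share arrays, so a gene that is far off in experiment 3 also moves the other contrasts. Sec61b, for example, is called higher in experiments 1 and 2 although it was not called over the 3 hypoxia-set pairs (adjusted p = 0.53).

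Leaving out 1 array moved these counts, the lone array of its pair being assumed to vary like the other groups. Without the second experiment 1 array that pair had 1 call, without the first experiment 2 array 19, and without the first or second unnumbered array that pair had 26 and 27. Without the first experiment 1 array that pair had 51 calls, and without the second experiment 2 array that pair had 199. The 200 genes called over the 3 hypoxia-set pairs became 22 and 25 without the first or second unnumbered array, 84 and 67 without those of experiment 1 and 91 without the first of experiment 2. Without the first experiment 3 array, 1337 genes were called for that pair and 1339 over the 4 pairs. The counts of experiments 1 and 2 also moved when arrays of other pairs were left out, to as few as 194 for experiment 1 and 173 for experiment 2.

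**Figure D2:**
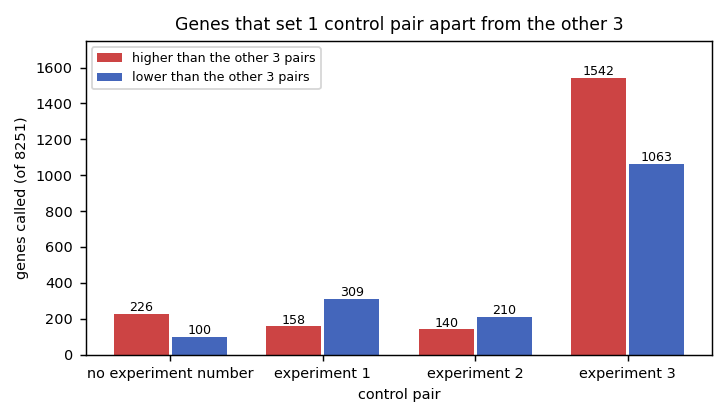
Number of genes called higher and lower in each control pair than in the mean of the other 3 pairs (limma adjusted p under 0.05, 8251 genes). Experiment 3 has 1542 higher and 1063 lower genes, against 140 to 226 higher and 100 to 309 lower in the other pairs.

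The largest single-gene shifts of the experiment 2 controls included Fos, Ccn1, Id3, Id1 and Txnip. Fos, the AP-1 subunit, Egr1, a zinc-finger factor, Nr4a1, an orphan nuclear receptor, Ccn1, a matricellular SRF and YAP target, and the inhibitors of differentiation Id1 and Id3 were higher in both experiment 2 arrays than in any other control. Txnip, which restrains glucose uptake and thioredoxin, and Ddit4, an mTOR inhibitor, were lower. The stretches of 250 bases before the start sites of 4 of the raised genes are shown to let their promoters be compared, from RefSeq on GRCm38.p6, with TGACG, the core of a cAMP and stress response element, or its reverse complement CGTCA in capitals.
Fos, chr12:85473640-85473889 (plus strand): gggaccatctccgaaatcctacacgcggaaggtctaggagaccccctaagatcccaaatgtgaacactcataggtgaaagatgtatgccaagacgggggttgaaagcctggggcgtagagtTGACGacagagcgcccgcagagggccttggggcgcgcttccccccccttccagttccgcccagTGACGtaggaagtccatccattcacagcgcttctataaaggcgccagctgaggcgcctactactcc
Nr4a1, chr15:101266596-101266845 (plus strand): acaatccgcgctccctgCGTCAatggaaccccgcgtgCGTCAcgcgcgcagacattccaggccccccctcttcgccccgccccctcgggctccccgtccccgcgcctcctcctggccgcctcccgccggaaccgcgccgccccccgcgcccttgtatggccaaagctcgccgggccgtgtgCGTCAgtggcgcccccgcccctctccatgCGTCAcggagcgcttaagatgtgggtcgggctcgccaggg
Ccn1, chr3:145649986-145650235 (minus strand): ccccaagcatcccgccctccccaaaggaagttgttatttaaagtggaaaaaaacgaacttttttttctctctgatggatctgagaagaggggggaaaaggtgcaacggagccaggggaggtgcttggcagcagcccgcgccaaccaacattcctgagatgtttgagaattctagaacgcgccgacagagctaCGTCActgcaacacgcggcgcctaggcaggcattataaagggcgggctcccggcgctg
Id3, chr4:136143572-136143821 (plus strand): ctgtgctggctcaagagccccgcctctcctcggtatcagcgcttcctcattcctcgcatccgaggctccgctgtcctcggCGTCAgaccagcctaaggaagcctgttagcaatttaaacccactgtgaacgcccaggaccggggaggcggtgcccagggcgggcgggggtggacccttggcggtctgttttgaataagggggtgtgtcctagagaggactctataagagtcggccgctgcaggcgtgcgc

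The Fos window held TGACG 129 and 66 bases before the start, on the plus strand, and the letters TATAAA 33 bases before it. The Nr4a1 window held 4 matches, all on the minus strand, 233, 213, 69 and 40 bases before the start. Ccn1 and Id3 held 1 each, at 58 and 170 bases, and the Ccn1 window held TATAAA 25 bases before the start. No TGACG was found in the windows of Txnip and Ddit4. GGGCGG, also searched, was found in the 4 windows shown and in those of Txnip and Ddit4. On either strand, TGACG was found in 17.8% of 32851 such windows, TATAAA in 12.4% and GGGCGG in 32.7%. Neither the full palindrome TGACGTCA (1.55% of windows) nor a CArG box (1.47%), the recognition sequence of SRF, was found in the 4 windows shown. These are matches of letters, not mapped sites. Sequence further than 250 bases before the start was not searched, so sites there would be missed. No matches are given here for the raised genes Egr1 and Id1.

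Fos was 8.19 and 8.03 in experiment 2 controls, against 5.56 to 6.94 (median 5.75) in the other 6. Its difference from the mean of the other pairs was 2.01 ± 0.26 on the log2 scale, 4.04-fold (limma adjusted p = 1.1e-04). Fos was not level elsewhere, since experiment 3 controls (6.94 and 6.90) were also above the unnumbered (5.74 and 5.76) and experiment 1 controls (5.66 and 5.56), and its second, dimmer probe set did not pass. Ccn1 was 7.84 and 7.74, against 5.80 to 6.38 (median 6.10), a difference of 1.68 ± 0.17 (adjusted p = 6.4e-06). Id3 was 6.78 and 6.74, against 4.89 to 5.40 (median 5.15), and Id1 5.88 and 5.87, against 4.20 to 4.55 (median 4.25). Their differences were 1.63 ± 0.11 and 1.56 ± 0.12 (limma adjusted p = 2.5e-08 and 1.5e-07), and the other 3 pairs lay within a narrow band. That band was at low signal, under the antisense ceiling (5.70 to 6.33 per array). Id1 in experiment 2 controls was just over the ceilings of those arrays (5.82 and 5.80). Egr1 differed by 1.22 ± 0.18 and Nr4a1 by 1.07 ± 0.11, and in both the experiment 1 arrays were the lowest. The other, dimmer probe set of Egr1 read 0.12 and did not pass (limma adjusted p = 0.63). Lgals3 was 4.81 and 5.20 in experiment 2 controls, against 3.50 to 4.09 (median 3.64), all under the antisense ceiling.

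Txnip was 6.83 and 6.40 in experiment 2 controls, against 7.77 to 8.25 (median 8.20) in the other 6, with no overlap. Its difference was -1.49 ± 0.14 (adjusted p = 1.5e-06), but a second probe set read 0.21, with the opposite sign, and did not pass (adjusted p = 0.28). Ddit4 was 7.32 and 7.27, against 7.63 to 8.86 (median 8.31), 1.99-fold lower (SE 0.14 on the log2 scale, adjusted p = 3.0e-04). The copper oxidase Cp differed by -1.13 ± 0.13, N-cadherin (Cdh2) by -0.93 ± 0.16 and the tumour suppressor Rassf1 by -0.93 ± 0.17 on the log2 scale, all lower. The calls of Cdh2 and Rassf1 were lost without the first experiment 2 array. The MYC antagonist Mxi1 (-0.65) and the cyclin Ccng2 (-0.51) were also lower, the Ccng2 call being lost without any 1 of 7 arrays. Mxi1 and Ccng2 were not called against the unnumbered and experiment 1 controls alone, while Txnip, Ddit4, Cp, Cdh2 and Rassf1 were.

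Of 25 immediate early and growth factor response genes, 13 differed over the 4 pairs and 7 over the 3 hypoxia-set pairs, where 31.5% and 2.42% of all genes did. In experiment 2 controls 5 rose (Fos, Egr1, Nr4a1, Dusp1 and Ier3) and 4 fell (Klf10, Spred2, Phlda1 and Klf6), 16 did not pass, and the median was 0.17, against 0.03 over all genes. Of all genes 1.70% rose and 2.55% fell. Against the unnumbered and experiment 1 controls alone, Fos, Egr1, Nr4a1 and Dusp1 rose and Phlda1 fell. Ier3 was 6.14 and 6.43 in experiment 3 controls, against 8.38 to 8.71 (median 8.56) in the other 6, and it was not called over the 3 hypoxia-set pairs (adjusted p = 0.99). Of the members that fell, Klf10 is known as a gene induced by transforming growth factor-beta and Spred2 as a Ras pathway inhibitor. Over the alternatives that leave out 1 array, 3 to 5 members were higher and 0 to 3 lower.

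Several of these baseline shifts reach into the treatment comparison of the same set, because the control mean is what hypoxia is measured against. Ccn1 averaged 9.23 after hypoxia in experiment 2, against 7.79 in its controls. In experiment 1 it averaged 8.90 after hypoxia, against 5.94 in controls, and with the chamber 8.68 after hypoxia, against 6.37 in controls. The 3 hypoxic means lay closer together than the 3 control means. Id3 averaged 5.76 after hypoxia, against 6.76 in experiment 2 controls, while with the chamber it averaged 5.11 after hypoxia, against 4.89 in controls. Txnip averaged, after hypoxia against controls, 6.76 against 6.62 in experiment 2, 5.71 against 7.86 in experiment 1 and 6.74 against 8.20 with the chamber. These are means given side by side, and their differences between sets were not tested here.

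**Figure D3:**
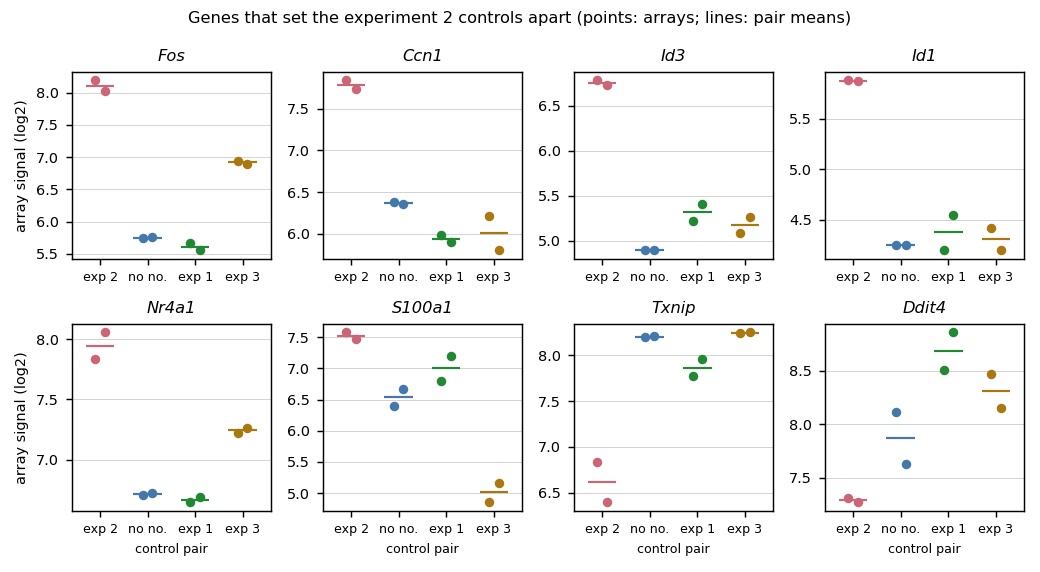
Log2 signal of genes that set the experiment 2 controls apart, 1 panel per gene and 1 point per control array, with the pair mean as a line. The experiment 2 arrays lie above all 6 others for Fos, Ccn1, Id3, Id1, Nr4a1 and S100a1 and below them for Txnip and Ddit4.

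The unnumbered controls were set apart by lower Lmnb1 and Zbtb20 and higher Cotl1, Cenpb and Dhcr7, and 9 of 42 DNA replication genes were higher. Lmnb1, lamin B1, was 6.72 and 6.37, against 7.52 to 8.19 (median 8.01) in the other 6, a difference of -1.38 ± 0.22 (adjusted p = 0.0013), a call lost without the second unnumbered array. Cotl1, an actin-binding protein, was 6.54 and 6.59, against 4.35 to 6.01 (median 5.84), a difference of 1.13 ± 0.13 (adjusted p = 4.9e-05). Cenpb, a centromere protein, was 7.24 and 7.33, against 5.92 to 6.64 (median 6.24), a difference of 1.03 ± 0.11. Cotl1 and Cenpb did not overlap with any other pair, and experiment 3 was lowest for both. Zbtb20, a zinc-finger repressor, was lower with a difference of -1.01 ± 0.12, and Dhcr7, the last enzyme of cholesterol synthesis, higher by 0.82 ± 0.10. Serpinh1, a collagen chaperone, was higher by 1.00 ± 0.21, a call lost without either unnumbered array. Against the controls of experiments 1 and 2 alone Serpinh1 was not called (adjusted p = 0.15), while the other 5 were, Cotl1 with a difference of 0.66 and Dhcr7 with one of 0.47.

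Of 42 DNA replication genes, 9 rose, 1 fell (Orc2) and 32 did not pass in the unnumbered controls, with a median of 0.20, against -0.05 over all genes. Of all genes 2.74% rose and 1.21% fell. Over the 3 hypoxia-set pairs 2 of 42 differed, where 2.42% of all genes did, and against the controls of experiments 1 and 2 alone 5 rose (Cdc6, Prim1, Prim2, Rfc4 and Tk1), where 3.01% of all genes did. Thymidine kinase Tk1 was 9.97 and 10.10, against 8.71 to 9.66 (median 9.45), a difference of 0.76 ± 0.09, though its second probe set did not pass and the mean of both was not called. The ribonucleotide reductase subunit Rrm2 was higher by 0.75, the helicase subunit Mcm5 by 0.60 and the primase subunit Prim1 by 0.59. The other, dimmer probe set of Mcm5 read -0.12 and did not pass (limma adjusted p = 0.62). Leaving out 1 array left 1 to 10 of the 42 replication genes higher. In experiment 1 controls 5 of the 42 fell and 0 rose, with a median of -0.23, where 3.75% of all genes fell. Leaving out 1 array left 0 to 5 lower there. Against the unnumbered and experiment 2 controls alone 1 fell (Prim2), with a median of -0.26. Of 17 glycolysis genes 4 rose in the unnumbered controls (Pfkl, Pkm, Tpi1 and Pgk1, by 0.37 to 0.71), and Pfkl, Pkm and Tpi1 were also among those that fell in experiment 3. Leaving out 1 array left 0 to 4 of the 17 higher, 0 were called by limma over the 3 hypoxia-set pairs (1 had an unadjusted p under 0.05), and Pgk1 alone rose against the controls of experiments 1 and 2.

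The experiment 1 controls were set apart by higher Ddit3, Bnip3 and Ddit4 and lower Anxa1, Idi1 and Nup93. Of 25 immediate early genes 3 fell (Fos, Egr1 and Nr4a1) and 1 rose, with a median of -0.04, and of 27 integrated stress response genes 2 rose, where 3.75% of all genes fell and 1.91% rose. Lower immediate early genes were not particular to this pair. In the unnumbered controls 5 of the 25 fell and 1 rose, with a median of -0.12, where 1.21% of all genes fell. Against the controls of experiments 1 and 2 alone, Fos, Fosl2, Jun, Klf4 and Nr4a1 fell there, where 1.5% of all genes did. Ddit3, the CHOP factor of the integrated stress response, was 9.00 and 9.37 in experiment 1 controls, against 7.66 to 8.79 (median 8.05), a difference of 0.98 ± 0.17 (adjusted p = 0.0037). Bnip3, a mitophagy receptor and HIF target, was 6.21 and 6.07, against 5.17 to 5.66 (median 5.38), a difference of 0.71 ± 0.14 (adjusted p = 0.0088). Ddit4 was 8.51 and 8.86, against 7.27 to 8.47 (median 7.87), with no overlap. Anxa1, a phospholipid-binding annexin, was 7.63 and 7.36, against 7.71 to 9.18 (median 8.52), with a difference of -0.97 ± 0.13, and all 3 of its probe sets were called. Idi1, an isoprenoid enzyme, differed by -0.93 ± 0.14 and the nucleoporin Nup93 by -0.90 ± 0.14, both lower. Each named call of experiment 1 was lost when at least 1 of its own arrays was left out. Against the unnumbered and experiment 2 controls alone, these 6 genes were still called (adjusted p of 0.0019 for Ddit4 to 0.046 for Ddit3).

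Of 36 mitosis genes, 13 fell and 23 did not pass in experiment 1 controls, with a median of -0.35, against 0.03 over all genes. The central spindle motor Kif23 (-0.66), the checkpoint gene Mad2l1 (-0.62) and the anaphase activator Cdc20 (-0.53) were among them. Over the alternatives that leave out 1 array, 0 to 12 were lower, so the count rests on both arrays, while the median stayed between -0.38 and -0.31. Over the 3 hypoxia-set pairs 2 of 36 differed, where 2.42% of all genes did. Against the unnumbered and experiment 2 controls alone 0 of the 36 were called by limma and 18 had an unadjusted p under 0.05, with a median of -0.24, against 0.02 over all genes. In the unnumbered controls, against those of experiments 1 and 2 alone, 5 of the 36 rose (Cdc20, Aurkb, Kif23, Ncaph and Racgap1), where 3.01% of all genes did. There the limma unadjusted p was under 0.05 for 21, with a median of 0.30, against -0.05 over all genes. Of 17 HIF targets outside glycolysis, 4 rose in experiment 1 controls (Ddit4, Bnip3, Hmox1 and P4ha2) and 13 did not pass, with a median of 0.17. In experiment 2 controls 4 fell (Ddit4, Mxi1, Ccng2 and Ndrg1) and Hmox1 rose, with a median of -0.18. Of all genes 1.91% rose and 3.75% fell in experiment 1 controls, and 1.70% rose and 2.55% fell in those of experiment 2. Over the 3 hypoxia-set pairs 3 of the 17 differed. With experiment 3 left out of the contrast, Bnip3 and Ddit4 rose in experiment 1 controls and Ddit4 fell in those of experiment 2. Leaving out 1 array left 0 to 4 higher in experiment 1 and 1 to 3 lower in experiment 2. Bnip3 after hypoxia averaged 7.90 in experiment 1, against 6.14 in its controls, and 8.67 in experiment 2, against 5.29.

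The experiment 3 controls were set apart by lower Dbi, Sec61b and Mt1 and higher Vcl and Timp3, and 24 of 36 mitosis genes were higher. Dbi, the acyl-CoA-binding protein, was 6.99 and 7.89 in experiment 3 controls, against 10.41 to 10.82 (median 10.46) in the other 6, a difference of -3.11 ± 0.32 and 8.63-fold lower (adjusted p = 7.8e-07). Sec61b, a subunit of the translocon of the endoplasmic reticulum, was 6.07 and 6.72, against 9.14 to 9.72 (median 9.46), a difference of -3.04 ± 0.24 (adjusted p = 2.4e-08). Neither gene overlapped with any other pair, and both spread by more between the 2 experiment 3 arrays than within other pairs. Mt1, a zinc-binding metallothionein, was 8.40 and 8.93, against 10.89 to 11.60 (median 11.08), with a difference of -2.53 ± 0.45, while the related Mt2 differed by -0.62 ± 0.13. Uqcr11, of respiratory complex III, fell by 2.43, Snd1, a nuclease of RNA silencing complexes, by 2.34 and Ier3, an early response gene, by 2.28 on the log2 scale.

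Higher genes in experiment 3 controls moved less far. Vcl, vinculin of focal adhesions, was 7.88 and 7.77, against 5.86 to 6.70 (median 6.14), a difference of 1.59 ± 0.15 (adjusted p = 2.7e-07), and its second, dimmer probe set did not pass. Timp3, a metalloprotease inhibitor, was 8.18 and 8.30, against 6.62 to 7.33 (median 6.85), a difference of 1.31 ± 0.12. Ahr, the dioxin receptor, was 5.33 and 5.04, against 3.59 to 4.15 (median 3.93), with no overlap but at low signal. Zfp62 (1.37), Tlcd4 (1.32) and the Hippo pathway gene Mob1b (1.29) were also higher. These named calls of experiment 3 held under every alternative run.

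By group, the counts below stand against 18.7% of all genes higher and 12.9% lower. Of 36 mitosis genes, 24 rose and 2 fell (Stmn1 and Birc5) in experiment 3 controls, and 10 did not pass, with a median of 0.44, against -0.02 over all genes. Mki67, the proliferation antigen, was 8.55 and 8.29 by its brighter probe set, against 7.29 to 7.59 (median 7.50), and Top2a, which untangles DNA, was 9.07 and 8.73, against 7.77 to 8.31 (median 8.18). Leaving out 1 array left 17 to 23 higher. Oxidative phosphorylation went mostly the other way, as 18 of 45 genes fell and 7 rose, with a median of -0.22. Ndufa6 (-1.85), Ndufb8 (-1.66) and Atp5l (-1.55), subunits of complex I and ATP synthase, were among those lower, while Uqcrc2 (0.99) and Atp5a1 (0.65) were higher. The other, dimmer probe set of Atp5l read 0.02 and did not pass (limma adjusted p = 0.94). DNA replication split, with 14 of 42 lower (Rrm2 -1.24, Tk1 -0.96, Mcm7 -0.93) and 7 higher (Pola1 1.00, Rfc1 0.85).

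Glycolysis had 7 of 17 lower (Pfkl -1.49, Tpi1 -0.67) and Pdk1 higher. Of 10 metallothionein and zinc handling genes, 4 fell and 2 rose. Of 27 integrated stress response genes, 9 fell and 4 rose, of 22 NRF2 targets 9 and 5, and of 32 ribosomal proteins 8 and 2. Ribosome biogenesis had 14 of 40 higher and 9 lower. Leaving out 1 array left 5 to 10 integrated stress response genes, 6 to 9 NRF2 targets and 3 to 8 ribosomal proteins lower, with 0 to 5 NRF2 targets higher, and 5 to 14 ribosome biogenesis genes higher. Over the 4 pairs, 26 of 36 mitosis genes, 27 of 40 ribosome biogenesis genes and 27 of 45 oxidative phosphorylation genes differed, where 31.5% of all genes did, and 2, 1 and 1 of them differed over the 3 hypoxia-set pairs. By limma, 0 of 13 fatty acid synthesis genes, 0 of 14 leukocyte, 0 of 9 endothelial and 0 of 6 erythroid markers were called over the 4 pairs, and 5, 0, 0 and 0 of them had an unadjusted p under 0.05.

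**Figure D4:**
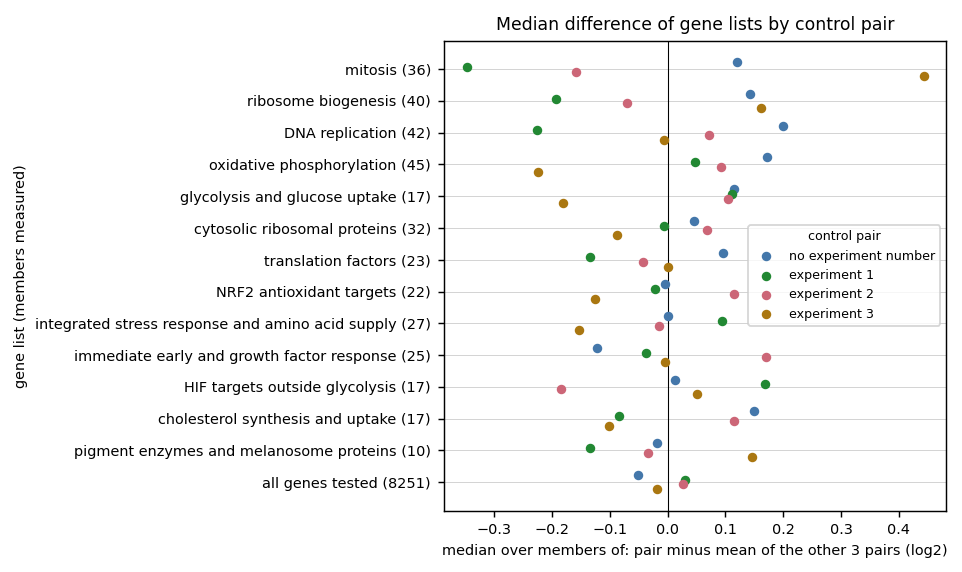
Median log2 difference of each gene list between a control pair and the mean of the other 3 pairs, with 1 row per list, its measured members in brackets, and 1 coloured point per pair. Mitosis reads -0.35 in experiment 1 and 0.44 in experiment 3, and oxidative phosphorylation -0.22 in experiment 3.

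The cobalt arrays of experiment 3 were set beside its controls. Of the 149 genes lower by at least 1 log2 unit in experiment 3 controls, 77 (51.7%) were lower on all 4 cobalt arrays than on all 15 arrays of the other sets, and of the 30 higher by as much 3 (10.0%) were above. Over all 8251 genes, 621 (7.53%) were below and 447 (5.42%) above in this way. The 15 arrays include the controls against which the 149 and 30 genes were picked, so the shares over all genes are not a matched background. The Actb 3′ minus 5′ difference of the cobalt arrays was 0.50 to 2.36, and that of Gapdh 0.12 to 2.18.

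The probe set chosen for a gene mattered in every pair. Of 912 other probe sets of genes called in experiment 3, 173 (19.0%) were called in the same direction and 74 (8.11%) in the opposite one. Of all 10833 probe sets, 3015 were called for that pair. In the unnumbered pair the counts were 10 (8.62%) and 2 of 116, in experiment 1 they were 7 (4.52%) and 1 of 155, and in experiment 2 they were 11 (8.15%) and 0 of 135. Of all probe sets, 361, 442 and 367 were called for these pairs. Another 43, 60 and 48 of the other probe sets had the opposite sign without a call, against 61, 87 and 76 with the same sign. Genomic span is given for the called genes as a description with no test. Its median was 31.2 kb for the genes higher in experiment 3 controls, 11.4 kb for the lower ones and 19.1 kb for all genes. In the other pairs the higher genes were the shorter ones. Higher and lower genes had medians of 7.90 and 31.3 kb in experiment 2, 10.2 and 21.8 kb in experiment 1 and 14.1 and 63.9 kb in the unnumbered pair. These are not separate observations, since experiment 3 is part of the mean each of these pairs was set against. A gene low in experiment 3 therefore reads higher in them. Spans with experiment 3 left out are not given here.

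**Figure D5:**
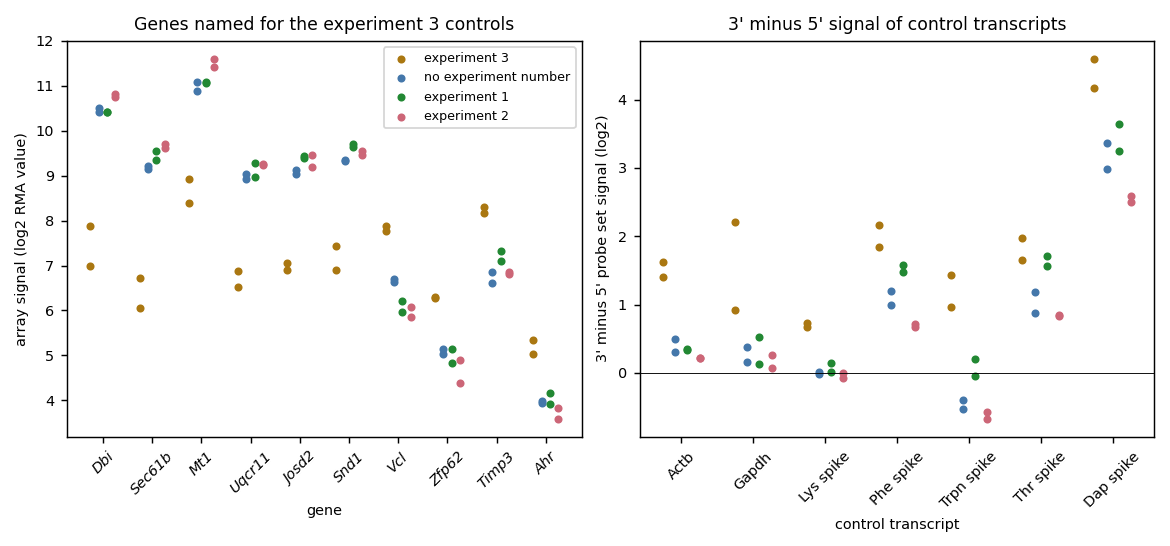
Log2 signal of genes that set the experiment 3 controls apart, and the 3′ minus 5′ log2 difference of RNA quality controls, with 1 point per control array. The experiment 3 arrays lie below the other 6 for Dbi, Sec61b and Mt1 and above them for Vcl and for the Actb and Gapdh differences.

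Among bright genes, a few were level on every control. Kdelr1, which returns proteins to the endoplasmic reticulum, spanned 9.72 to 9.94 (median 9.78) and the cholesterol carrier Npc2 9.70 to 9.87 (median 9.76). Rpl6, a ribosomal protein, spanned 11.21 to 11.43 (median 11.38). Etf1, the translation release factor, spanned 9.61 to 9.80 (median 9.70) by its brightest probe set, although another of its 5 was higher in experiment 3 controls (0.48). Hif1a and Slc2a1 are given as genes always looked at, whatever their signal or spread. Hif1a, the oxygen-regulated subunit of the hypoxia factor, spanned 9.76 to 10.20 (median 9.99) with no call over the pairs (limma moderated F, adjusted p = 0.15). Slc2a1, the basal glucose transporter, was dimmer and spanned 6.36 to 6.94 (median 6.58), also with no call (adjusted p = 0.13). A p-value that misses the threshold does not show that these pairs were equal.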

How the data were processed

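RNA of 21 cultures of B16-F10 cells was measured on Affymetrix MG-U74Av2 arrays. The values deposited by the authors are log2 signals of 12488 probe sets, made with GCOS 1.2 and RMA per the submitters' processing notes; how RMA was run is not given in the sources used here. They were used without further scaling, and the number of arrays limits the precision. Control arrays had medians of 5.46 to 5.52. Genes were named through the platform annotation, updated through RefSeq: 66 probe sets were array controls, 396 held several genes and 1193 none, and 10833 named 1 gene each. For each of 8251 genes the probe set with the highest mean over the 8 controls was used. R 4.3.3 and limma 3.58.1 fitted 1 mean per group over all 21 arrays (9 groups). A moderated F compared the 4 control pairs, and the 3 of the hypoxia sets, and each pair was set against the mean of the other 3 (two-sided). P-values were adjusted by Benjamini-Hochberg over all genes and called under 0.05. The named genes are the 25 brightest, the 24 with the largest range of pair means among called genes, up to 6 in each direction per pair whose 2 arrays both lie beyond the other 6, up to 5 per list, the 8 steadiest of the 500 brightest, genes near background that treatment raised, and a set of genes always looked at. Other genes named from the lists are called members. The members and lists were chosen with earlier results of these data known. The Bacillus control probe sets were spiked, so background used the yeast ones, and the antisense ceiling was chosen after the data were seen. The fit was tested on simulated data with 200 genes changed by 1 log2 unit among 8251: the F over 4 pairs recovered 187 with 14 false calls, and the experiment 2 contrast 196 with 13. Replicate numbers did not pair the arrays, as residual correlations were -0.11 to 0.13. Alternatives covered the arrays fitted, scaling, probe set choice, a low-signal filter, array weights, a replicate block, the background ceiling, leaving out each control array and, added after the data were seen, leaving experiment 3 out of the contrasts.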

Additional observations from a re-analysis of the deposited data

How the results depend on the processing

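Counts of called genes depended on which arrays entered the fit or the contrast and on how they were weighted. Against the 2 remaining hypoxia-set pairs alone, a contrast added after the data were seen, 35 genes were called for experiment 1, 44 for experiment 2 and 372 for the unnumbered pair. Fitting only the 8 control arrays gave 1068 genes over the 3 hypoxia-set pairs, 1033 for the unnumbered pair, 1380 for experiment 1 and 1183 for experiment 2. Leaving out the 4 CoCl2 arrays gave 1139, 1047, 1412 and 1194. Array weights gave 4236 over the 4 pairs and 2287 over 3, with 2333, 1569 and 916 for the unnumbered pair and experiments 1 and 2. Leaving out 1 control array gave 1339 to 2542 genes over the 4 pairs, 22 to 204 over 3, 26 to 273 for the unnumbered pair, 1 to 426 for experiment 1, 19 to 313 for experiment 2 and 1337 to 2483 for experiment 3. It gave 374 to 396 genes near background, 6544 to 6629 above it and 1 that treatment raised. With the replicate number as a block the counts were 2468 over the 4 pairs, 167 over 3, and 306, 381, 303 and 2530 for the unnumbered pair and experiments 1, 2 and 3. A ceiling at the 20th percentile of all probe sets put 918 genes near background and 2 raised by treatment. The antisense ceiling put 3450 near background, 2012 above it by 1 log2 unit and 19 raised by treatment. The mean of a gene's probe sets reversed Actn1 and Rps28 in experiment 3 (-0.0692 and -0.24). Why the settings differ was not tested beyond their own construction. Of 307 called pair differences of named genes, 128 held under every alternative and 249 under all that keep every array. Of 172 ranges over the 4 pairs, 118 and 148 did. Signal near the ceilings limits what can be said of dim genes, and each pair holds 2 arrays.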
